A study of Mus musculus with 10 samples.

Results

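Ribosome-bound RNA of striatal cholinergic neurons was compared between mice that self-administered cocaine and yoked controls, with 3 libraries in each group. These are 6 of the 10 libraries of the series, chosen by their labels: every immunopurified library titled cocaine self-administration against every one titled yoked control. All came from the whole striatum of adult Chat-TRAP (DW167) mice, which make an EGFP/Rpl10a fusion under the control of Chat regulatory sequence, so that the ribosomes of Chat-expressing cells carry a tag and can be pulled down with an antibody against EGFP. Both groups carry the transgene. The labels give neither the doses and session times nor the sex of the mice, and do not say whether a library is 1 mouse or a pool. What the yoked mice received is not given either. Nothing says that replicates were separate animals. With the replicate number as a block, as in the main fit, p-values measure how far the cocaine minus yoked difference varied between replicates. That variation may be partly technical.

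Cholinergic interneurons are a sparse cell type of the striatum that fires tonically and supplies nearly all of its acetylcholine. They respond to dopamine through D2-type and D5 receptors, and cocaine raises extracellular dopamine by blocking its transporter. In a self-administration experiment an animal works for the drug, and a yoked partner usually receives what the working animal earns, or another matched event, without control over it. A contrast of both is commonly used to separate the act of taking a drug from exposure to it.

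The 3 cocaine libraries held 24526800, 75220900 and 29483900 counts in genes and the yoked ones 54980400, 30369100 and 27474700, in the order of replicates 1, 2 and 3. Levels are given below as read counts normalised to library size (CPM), always in that order, and compare a gene with itself between libraries, not with other genes. The cholinergic neuron markers summed to between 5920 and 7020 CPM in the cocaine libraries and between 5960 and 7490 CPM in the yoked libraries, against 164 CPM in the unpurified striatal input. Markers of spiny projection neurons in general, the main striatal cell type, were still present at 2020 to 3030 CPM and 2370 to 2780 CPM, against 15100 CPM in the input. The ribosomal RNA precursor Rn45s took 11.1% and 13.7% of gene counts in cocaine replicates 1 and 3 but 3.34% in replicate 2, and 12.9%, 1.4% and 16% in the yoked libraries. Replicate 2 was also low in the saline group (10.6%, 2.02% and 12.5%). Lane number 4 is given for all 6 libraries. Replicates 1 and 3 carry the same index read in both groups, so that lane number does not by itself place the groups in 1 run, and run and group cannot be told apart.

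Genes that define the tagged cells were measured at high levels in both groups. Chat, the enzyme that makes acetylcholine, was measured at 594, 734 and 568 CPM in the cocaine libraries and 616, 534 and 543 CPM in the yoked libraries. The groups overlapped and the log2 difference was 0.16 (SE 0.14, unadjusted p = 0.291). The choline transporter Slc5a7, which takes choline back into the terminal, was at 1142, 1510 and 1091 CPM against 1193, 1512 and 1183 CPM, a log2 difference of -0.060 with an SE of 0.11. Slc18a3, which loads acetylcholine into vesicles, was at 685, 441 and 1052 CPM in the cocaine libraries and 728, 977 and 1275 CPM in the yoked libraries. Its log2 difference was -0.50 (SE 0.21, unadjusted p = 0.0486), most of it from replicate 2, and was -0.18 without that replicate. Slc18a3 (chr14:32462437-32464850, mm10) lies within Chat (chr14:32408203-32465909), so reads of the shared stretch could be assigned to either or to neither. The symbol Rpl10a was at 12.3, 5.83 and 11.4 CPM and 7.04, 6.99 and 12.9 CPM. Counts per symbol do not tell reads of the native gene from reads of the fusion. In RNA pulled down from a tissue, fewer cells of a type and less RNA per cell cannot be told apart.

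No gene passed the test between cocaine self-administration and yoked control. The 6 libraries were fitted with edgeR's quasi-likelihood test with the replicate number as a block, and 0 of 14481 genes tested (0%) had an adjusted p under 0.05. The smallest adjusted p was 0.924. At an unadjusted p under 0.05 there were 237 genes (1.64%), 116 higher in cocaine (0.801%) and 121 lower (0.836%). That is less than the share of 0.05 which this threshold gives on average with no difference. The shares of all genes set beside list members below are therefore low. DESeq2 and limma voom also called 0 genes, with 572 and 516 genes at an unadjusted p under 0.05. Of all genes tested, 7206 (49.8%) had a difference above 0 and 7275 (50.2%) one below 0, and the median log2 difference was -0.0018. The 95% interval of a gene with 5 CPM or more reached, at the median, 0.488 on the log2 scale to either side, or 1.4-fold, so smaller differences in a typical gene could not be resolved here even before adjustment.

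The replicates differed in how far the cocaine and yoked libraries lay apart. Among the 10263 genes of at least 5 CPM, the median absolute log2 difference within a replicate number was 0.158 in replicate 1, 0.423 in replicate 2 and 0.13 in replicate 3. These correspond to 1.12-fold, 1.34-fold and 1.09-fold. More than 2-fold apart were 76 genes in replicate 1 (0.741%), 1472 in replicate 2 (14.3%) and 36 in replicate 3 (0.351%). In cocaine replicate 2, the most deeply sequenced library, the row of reads not aligned to 1 place held 56.2% of all counts, against 36.3% in yoked replicate 2. That share was 47.2% and 54.3% in cocaine replicates 1 and 3, 50.8% and 57.1% in the yoked ones, and 36.4% in saline replicate 2. The part of these differences between the libraries in the wide spread of replicate 2 was not tested.

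**Figure D1:**
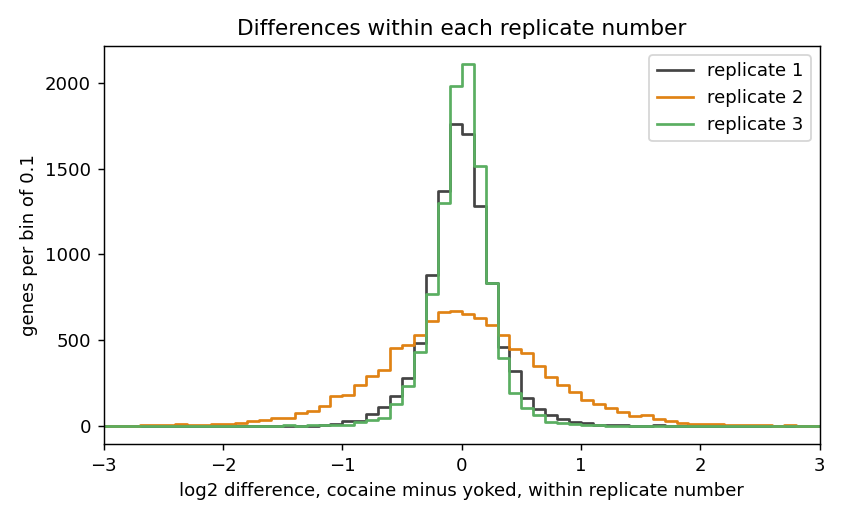
Number of genes (y axis) by log2 difference of cocaine minus yoked (x axis, bins of 0.1) within each replicate number, for the 10263 genes of at least 5 CPM. Replicates 1 and 3 are narrow around 0 (median absolute difference 0.158 and 0.13), and replicate 2 is wider (0.423).

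The 12 genes with the smallest p among those higher in cocaine are described first, none of which passed the adjusted threshold. Zbtb38 (chr9:96682767-96731675, mm10), a zinc finger repressor that binds methylated CpG sites, had the smallest p of them. It was at 159.5, 204 and 157 CPM in the cocaine libraries and 98.3, 69.7 and 109.5 CPM in the yoked libraries. All 3 cocaine values lay above all 3 yoked values, as they did for 511 of the 14481 genes (3.53%). In either direction 1015 genes did not overlap (7.01%). Its mean was 174 ± 26.1 CPM (SD, n = 3) against 92.5 ± 20.6 CPM (SD, n = 3), and the fitted difference was 1.89-fold, or 0.92 (SE 0.22, unadjusted p = 0.00416), with a 95% interval of 0.40 to 1.44. Within replicates the log2 difference was 0.70, 1.54 and 0.52. In the saline self-administration libraries, which carry lane number 3 and are not part of the test, Zbtb38 was at 127, 95.3 and 119 CPM.

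Nfix, a nuclear factor I transcription factor (chr8:84704712-84801238), was at 25.1, 22.9 and 21.6 CPM in cocaine and 14.6, 9.07 and 13.7 CPM in yoked libraries. The groups did not overlap and the log2 difference was 0.92 (SE 0.23, unadjusted p = 0.00547). Creb3l1, a transcription factor held in the membrane of the endoplasmic reticulum (chr2:91982328-92024170), was at 9.36, 7.52 and 8.25 CPM in cocaine against 4.12, 4.38 and 4.11 CPM in yoked libraries, with a log2 difference of 0.99 (SE 0.31, unadjusted p = 0.0152). For this gene the saline values, 9.06, 7.17 and 9.24 CPM, were close to the cocaine ones, which was not tested. The cell adhesion gene Cdh11 was at 35.9, 48.5 and 39.2 CPM against 24.6, 24.7 and 30.2 CPM, and its groups did not overlap either. Gfpt2, an enzyme that starts the hexosamine pathway, was at 7.24, 9.83 and 5.28 CPM against 3.38, 3.82 and 3.23 CPM, also without overlap.

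A further 6 of the 12 were higher in cocaine in every replicate, with overlapping groups. Pcp4, a small regulator of calmodulin, was at 236, 320.5 and 145 CPM in cocaine and 187, 133 and 112 CPM in yoked libraries, a log2 difference of 0.66 with an SE of 0.21. Ccdc101, the Sgf29 subunit of histone acetyltransferase complexes, and Ppp1r3e, which targets protein phosphatase 1 to glycogen, had log2 differences of 0.84 and 0.80. Ccdc101 had its highest cocaine value in replicate 2, 18.6, 44.5 and 11.1 CPM against 9.33, 19.1 and 9.14 CPM. The symbols DQ539915, AK140265 and abParts, with log2 differences of 0.64, 0.53 and 0.52, have no entry in the reference gene table.

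Of the 12 genes with the smallest p among those lower in cocaine, Slc11a2 (chr15:100387898-100424209), the iron transporter DMT1, came first. It was at 14.3, 21.99 and 24.8 CPM in the cocaine libraries and 24.1, 50.4 and 39.5 CPM in the yoked libraries. Each cocaine library lay under the yoked library of its number, although the highest cocaine value exceeded the lowest yoked one. The fitted log2 difference was -0.87 (SE 0.19, unadjusted p = 0.00292), with a 95% interval of -1.33 to -0.41. Ficd (chr5:113735758-113740607), an enzyme of the endoplasmic reticulum that attaches AMP to the chaperone Hspa5 and removes it, was at 4.46, 5.59 and 6.81 CPM against 13.5, 9.82 and 11.97 CPM. Its groups did not overlap, as for 504 genes with cocaine below (3.48%), and it was 2.10-fold lower (log2 difference -1.07, SE 0.30, unadjusted p = 0.00929). The saline libraries were at 6.34, 8.71 and 9.63 CPM.

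Plxna3 (chrX:74328290-74344689), a plexin that transmits semaphorin signals in axon guidance, was at 10.6, 10.4 and 13.6 CPM in cocaine and 16.6, 27.5 and 20.4 CPM in yoked libraries. The groups were apart, the log2 difference was -0.88 (SE 0.25, unadjusted p = 0.0104), and the saline libraries were at 15.7, 27.2 and 17.5 CPM. Smox, which oxidises spermine, showed 8.95, 9.07 and 9.92 CPM against 14.5, 22.7 and 14.1 CPM, again without overlap. Acvr1c, the activin-type receptor ALK7, was at 11.6, 8.04 and 10.5 CPM against 20.03, 16.4 and 14.4 CPM, and Cdk5rap1, which modifies mitochondrial tRNAs, at 4.95, 2.84 and 2.04 CPM against 7.36, 7.02 and 6.64 CPM. Neither overlapped. The cell surface gene Cd99l2 and the centriole gene Fbf1 had log2 differences of -0.54 and -0.70, both without overlap. The amino acid transporter Slc43a2 and Uhrf1bp1 had differences of -0.47 and -0.67, with overlapping groups. The symbols AK038852 and AK144265, which have no entry in the reference gene table either, had differences of -1.10 and -0.43.

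**Figure D2:**
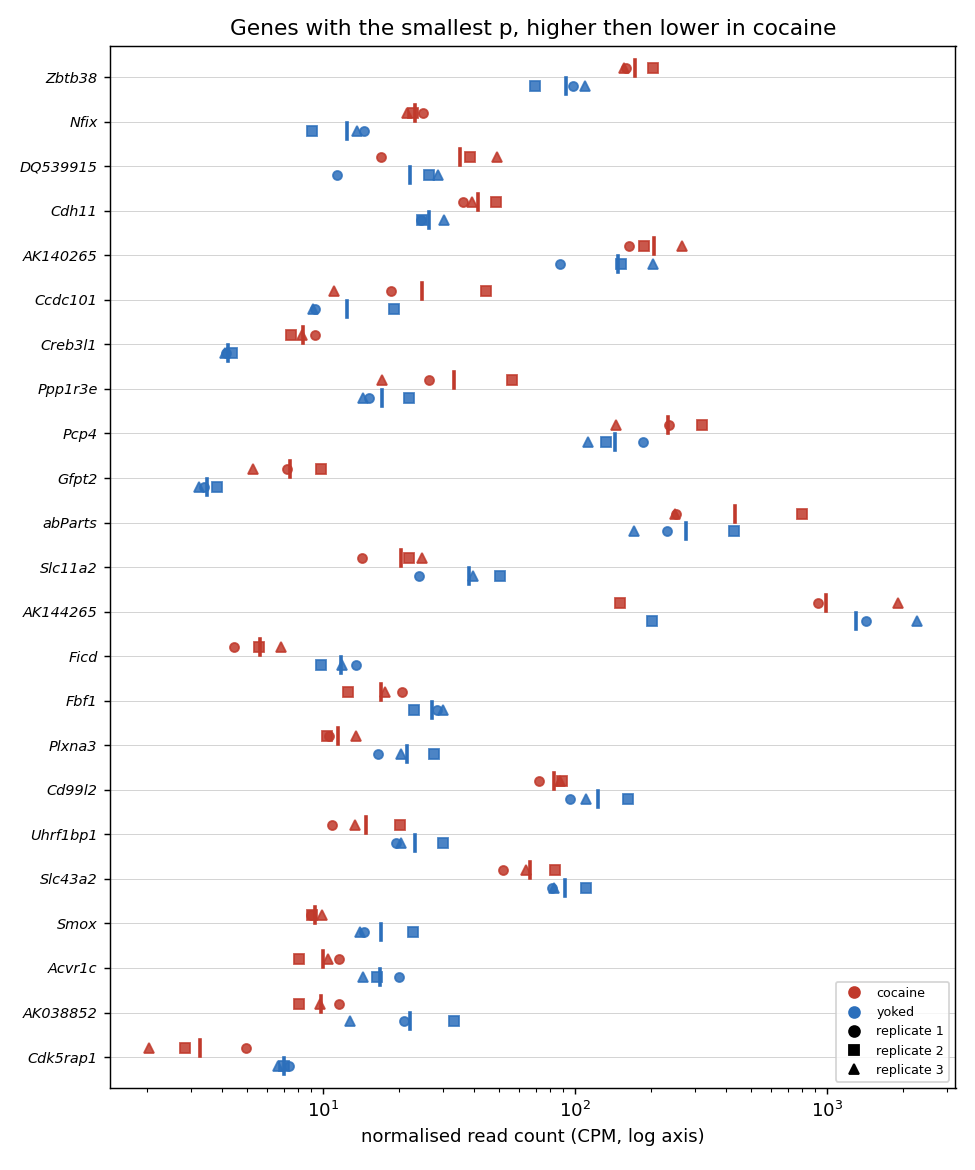
Normalised read counts (CPM, log axis) of 11 of the 12 higher and of the 12 lower genes with the smallest p, 1 symbol per library (circle, square and triangle for replicates 1, 2 and 3), cocaine in red and yoked in blue, with the group mean as a vertical line. The 23 genes plotted each differ in the same direction in the 3 replicates, which 3627 of 14481 genes did (25%), and none passed the adjusted threshold.

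These 24 genes were picked by p from this comparison, so their direction and separation describe the choice. Their enrichment in tagged-cell RNA was measured in libraries outside it, as the level after immunopurification (3 saline libraries) over that in the input (1 library). Of the 12 higher genes, 3 were at least 2-fold above input, Creb3l1 (6.17-fold), Ppp1r3e (3.86-fold) and abParts (13.6-fold). Of the 12 lower genes 1 was, Plxna3 (5.54-fold). Among all 14160 genes with a ratio, 2698 were (19.1%). At least 2-fold below input were 3 of the 12 higher genes, AK140265 (311-fold), DQ539915 (117-fold) and Nfix (11.96-fold), and 2 of the 12 lower genes, Acvr1c (20.7-fold) and AK038852 (2.58-fold). Of all genes with a ratio 3386 were (23.9%). Zbtb38, Slc11a2 and Ficd had ratios near 1 (0.839, 0.800 and 0.943). The input has no replicate, so these ratios carry no error for it.

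Leaving out replicate 2 changed the count of calls. With replicates 1 and 3 alone and the same block, edgeR called 13 of 14747 genes (0.0882%), 4 higher and 9 lower in cocaine, and 696 (4.72%) had an unadjusted p under 0.05. This fit has 1 residual degree of freedom, and on simulated counts it made more false calls than the fit of 6 libraries and than its threshold allows. Those counts shared 1 spread per gene over all libraries, without the wider replicate 2, so the rate in these data is not known. Without the block the same 4 libraries gave 0 calls. Zbtb38, at a log2 difference of 0.61 (adjusted p = 5.26e-05), and Ficd, at -1.20 (adjusted p = 0.0266), were among the 13. Ltbp1, which binds latent TGF-beta, was at 8.95, 2.81 and 11.1 CPM in cocaine and 1.83, 3.79 and 6.83 CPM in yoked libraries, and its replicate 2 went the other way (log2 differences 2.02, -0.38 and 0.66). Cartpt, a neuropeptide precursor that psychostimulants are known to regulate in striatum, was lower in replicates 1 and 3 and higher in replicate 2, at 8.87, 20.1 and 12.9 CPM against 13.7, 5.91 and 32.6 CPM. Its differences within replicates were -0.60, 1.68 and -1.30. Irs4, an insulin receptor substrate, was at 0.164, 0 and 0.701 CPM against 5.80, 0 and 1.47 CPM, with most of its reads in yoked replicate 1. Nat8l, which makes N-acetylaspartate, was at 176, 198 and 196 CPM against 269, 191 and 221 CPM.

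Several of the 13 are abundant transcripts whose level followed the replicate number in every group. Rn45s, at 111200, 35100 and 134900 CPM in cocaine and 130900, 13230 and 161300 CPM in yoked libraries, had differences of -0.23, 1.41 and -0.26. Lars2, which charges mitochondrial leucine tRNA, was at 3296, 1095 and 6598 CPM against 5397, 891 and 7925 CPM, and the symbol Mir6236 at 1527, 690.5 and 4110 CPM against 2174, 630.4 and 5727 CPM. Reads under that symbol do not measure a mature microRNA. AK144265 was at 927, 151 and 1912 CPM against 1426, 202 and 2283 CPM, and at 996, 339 and 1600 CPM in saline libraries. In each of these 4, replicate 2 was the lowest library of both groups. AK140265 was at 164, 189 and 266 CPM against 87.4, 152 and 205 CPM and was higher in cocaine in each replicate. AK155692, at 54.2, 219.6 and 85.2 CPM against 160.2, 24.7 and 222 CPM, was lower in replicates 1 and 3 and higher in replicate 2. For Cdr1, at 414, 613 and 1826 CPM against 268, 1434 and 1722 CPM, reads of the gene and of a transcript from its opposite strand cannot be told apart.

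**Figure D3:**
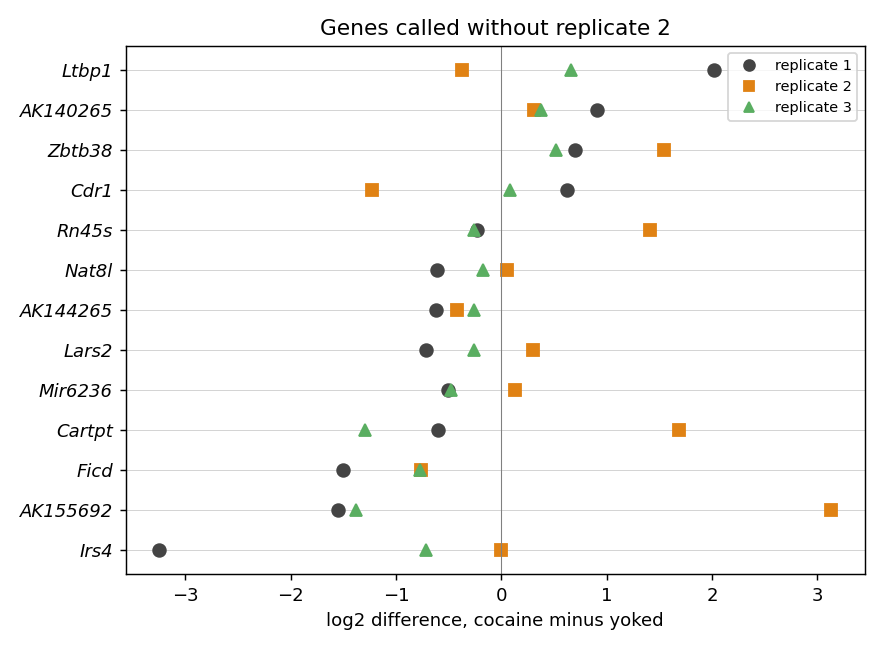
Log2 difference of cocaine minus yoked (x axis) within each replicate number for the 13 genes called when replicate 2 was left out. Replicates 1 and 3 share a direction in each gene, which describes the choice, as the genes were called from these 2 replicates. Replicate 2 takes the other direction in Ltbp1, Cdr1, Rn45s, Nat8l, Lars2, Mir6236, Cartpt and AK155692 and is at 0 in Irs4.

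Gene lists are described by the count of members higher and lower and by the median log2 difference, which was -0.0018 over all genes tested. No member of any list was called. Acetylcholine genes were centred on 0, with 5 of 9 tested members higher, 4 lower and a median of 0.019. Markers of cholinergic neurons had 5 of 13 higher and a median of -0.019. Among dopamine receptors 2 of 4 were higher. Drd2, the D2 receptor that cholinergic interneurons share with projection neurons, was at 1042, 2554 and 1194 CPM in cocaine and 963, 899 and 1120 CPM in yoked libraries. Cocaine replicate 2 stood far above the other 5 libraries, and the log2 difference was 0.56 (SE 0.28, unadjusted p = 0.0865). The same library was high for Snap25, a core protein of vesicle fusion, at 12720, 29560 and 8895 CPM against 10760, 12840 and 8477 CPM, and for the tubulin Tubb4a, at 984, 2996 and 857 CPM against 845, 812 and 809 CPM.

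Receptor lists held no gene that passed. Serotonin receptors had 3 of 10 members higher and a median of -0.40. Htr2c, a Gq-coupled serotonin receptor, was at 26.4, 25.8 and 32.8 CPM in cocaine and 37.7, 47.6 and 34.03 CPM in yoked libraries, without overlap. Htr5a, a Gi-coupled one, was at 41.9, 85.2 and 42.03 CPM against 35.4, 38.7 and 37.00 CPM, above in each replicate and furthest in replicate 2. The list median was -0.14 without that replicate. Nicotinic receptor subunits had 2 of 7 higher and a median of -0.60, which was -0.071 without replicate 2. The 2 with the smallest p were near the detection limit: Chrnb3 at 0.0409, 0.405 and 0.668 CPM against 1.09, 0.901 and 1.21 CPM and Chrna3 at 0, 0.433 and 0.300 CPM against 0.444, 0.653 and 0.661 CPM. Muscarinic (2 of 4 higher), glutamate (11 of 25) and GABA-A (6 of 14) receptors had medians of -0.12, -0.019 and -0.12. Tachykinin and opioid genes had 6 of 9 higher and a median of 0.076.

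No ion channel gene or gene of the release machinery was called. Of 76 pacemaker and potassium channel genes 42 were higher, with a median of 0.034. Among 33 calcium and sodium channel genes 13 were higher, and 1 in each direction had an unadjusted p under 0.05 (0.801% of all genes tested on the higher and 0.836% on the lower side). Cacnb3, a cytoplasmic calcium channel subunit, was at 823, 1045 and 852 CPM in cocaine and 702, 753 and 696 CPM in yoked libraries. The groups did not overlap and the log2 difference was 0.33 (SE 0.11, unadjusted p = 0.023), present in each replicate (0.23, 0.47 and 0.29). Cacng4, an auxiliary subunit of AMPA receptors, was at 2.37, 1.15 and 3.71 CPM against 4.53, 5.59 and 7.60 CPM, below in each replicate. Synaptic vesicle genes had 32 of 47 higher and a median of 0.051, and RGS proteins, which shorten G protein signals, 12 of 18 and 0.13. Lineage factors of these neurons had 12 of 22 higher and a median of 0.075, and among them Dlx5, a homeobox gene of forebrain interneurons, was at 59.4, 79.3 and 57.3 CPM against 44.4, 42.9 and 50.8 CPM without overlap (log2 difference 0.49, SE 0.18, unadjusted p = 0.0324).

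Immediate early and activity genes, which neurons switch on within minutes of strong input, had 13 of 27 members higher, 14 lower and a median of -0.018. Npas4, an activity-dependent transcription factor, was at 4.21, 0.475 and 2.17 CPM in cocaine and 1.11, 0.124 and 1.61 CPM in yoked libraries, lowest in replicate 2 of both groups. Nptx2, a secreted pentraxin of excitatory synapses, was under 3 CPM in every library. Circadian clock genes had 11 of 20 higher and a median of 0.040.

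Cholesterol synthesis had 9 of 24 members higher and 15 lower, with a median of -0.24. The median was -0.11, -0.28 and -0.13 within replicates 1, 2 and 3. Msmo1, a sterol methyl oxidase, was at 27.5, 30.5 and 29.4 CPM in cocaine and 34.3, 54.95 and 36.2 CPM in yoked libraries. All cocaine values were under all yoked values, and the log2 difference was -0.49 (SE 0.19, unadjusted p = 0.0364). Hmgcs1, which makes the HMG-CoA of this pathway, was at 88.5, 88.5 and 97.2 CPM against 106, 137 and 113 CPM, again apart (log2 difference -0.37, SE 0.15, unadjusted p = 0.0436). These were the 2 members with an unadjusted p under 0.05 (0.836% of all genes tested on the lower side), and 3 members lay below without overlap (3.48% of all genes). Without replicate 2 the list had 5 higher and 19 lower with a median of -0.12. Lcat, which esterifies cholesterol on lipoproteins, was at 0.450, 9.17 and 3.77 CPM against 0.425, 0.0622 and 0.514 CPM, so its difference came from cocaine replicates 2 and 3.

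Genes of the unfolded protein response and folding in the endoplasmic reticulum had 11 of 27 members higher and a median of -0.099. Besides Ficd, Dnajb11, a co-chaperone of Hspa5, had an unadjusted p under 0.05 (0.836% of all genes tested on the lower side). It was at 21.3, 39.3 and 33.2 CPM in cocaine and 33.3, 52.1 and 42.5 CPM in yoked libraries, lower in each replicate with overlapping groups (log2 difference -0.47, SE 0.17, unadjusted p = 0.0264). Hspa5, the central chaperone of this compartment and a gene named outside the fixed rule, was at 98.3, 138 and 95.2 CPM against 104, 127 and 119.6 CPM, with a log2 difference of -0.099 and an SE of 0.15. Stress induction of several such genes is known to use a promoter element with the letters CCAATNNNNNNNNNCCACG. The RefSeq promoter windows (GRCm38.p6, 250 bases before to 50 after the start) of Hspa5 (chr2:34771840-34772139, plus strand), Ficd (chr5:113735532-113735831, plus strand) and Dnajb11 (chr16:22857595-22857894, plus strand) are shown, Hspa5 as a known carrier of this element and the others as the 2 members with the smallest p. Capitals mark the match.
Hspa5: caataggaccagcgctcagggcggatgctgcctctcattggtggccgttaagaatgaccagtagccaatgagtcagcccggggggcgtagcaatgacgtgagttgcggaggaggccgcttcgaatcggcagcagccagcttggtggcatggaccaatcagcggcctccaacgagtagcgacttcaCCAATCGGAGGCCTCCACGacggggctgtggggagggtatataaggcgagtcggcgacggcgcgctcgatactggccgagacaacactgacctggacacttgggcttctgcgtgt
Ficd: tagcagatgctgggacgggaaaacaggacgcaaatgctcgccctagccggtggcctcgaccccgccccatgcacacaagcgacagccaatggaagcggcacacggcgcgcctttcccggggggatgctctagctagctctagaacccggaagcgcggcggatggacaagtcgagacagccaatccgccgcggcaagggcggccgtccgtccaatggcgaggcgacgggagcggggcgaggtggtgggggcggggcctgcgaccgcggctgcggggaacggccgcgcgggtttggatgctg
Dnajb11: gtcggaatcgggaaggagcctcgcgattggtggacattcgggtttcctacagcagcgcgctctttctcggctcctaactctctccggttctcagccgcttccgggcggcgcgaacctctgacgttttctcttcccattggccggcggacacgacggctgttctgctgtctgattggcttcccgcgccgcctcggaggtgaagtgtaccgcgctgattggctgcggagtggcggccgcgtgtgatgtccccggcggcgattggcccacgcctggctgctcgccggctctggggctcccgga
The match in Hspa5 begins 65 bases before the start, and the windows of Ficd and Dnajb11 hold none on either strand. Among the tested genes, 18 of 13391 windows hold the element (0.134%), and 8 of 24 windows of this list do (33.3%). Those 8 genes split into 4 higher and 4 lower in cocaine, with a median log2 difference of -0.012 and a range of -0.211 to 1.01. The smallest unadjusted p among them was 0.152.

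Readers of methylated DNA, the list that holds Zbtb38, had 9 of 13 members higher and a median of 0.13. Mbd6 was the next by p, at 13.2, 11.9 and 27.2 CPM in cocaine and 7.58, 10.7 and 16.9 CPM in yoked libraries, above in each replicate with overlapping groups. The related Zbtb4 and Zbtb33 had log2 differences of -0.095 and -0.011. DNA methylation and chromatin enzymes had 21 of 37 higher and a median of 0.040. Within semaphorins, plexins and neuropilins, 11 of 30 were higher and 19 lower, with a median of -0.13. Nrp2, a neuropilin co-receptor of plexins, was at 2.21, 1.86 and 1.80 CPM against 4.73, 3.36 and 5.76 CPM, and like Plxna3 its groups did not overlap. Both had an unadjusted p under 0.05 (0.836% of all genes tested on the lower side, and 3.48% lay below without overlap). The other plexins ran from a log2 difference of -0.45 (Plxnb2) to 0.096 (Plxnb1). Within the MHC class I and interferon list, 15 of 20 members were higher, with a median of 0.21. Irf9, an interferon regulatory factor, was at 4.66, 4.19 and 4.07 CPM against 2.70, 1.58 and 2.17 CPM, and was the 1 member with an unadjusted p under 0.05 (0.801% of all genes tested on the higher side). In all, 3 members lay above without overlap (3.53% of all genes).

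Replication-dependent histones, whose mRNAs mostly lack a poly(A) tail, had 6 of 30 tested members higher and 24 lower, with a median of -0.50. The replicates disagreed, at medians of 0.16, -0.80 and -0.41, and without replicate 2 the median was -0.097. Hist2h2be was at 6.54, 3.42 and 8.58 CPM in cocaine and 13.4, 13.2 and 5.07 CPM in yoked libraries, and Hist1h2ak at 3.15, 0.280 and 1.30 CPM against 3.64, 3.73 and 2.39 CPM, both with overlap. Their sequences are close to those of other histone genes, so reads may be split among them. Heat shock proteins had 13 of 18 members higher with a median of 0.11, and neuronal cytoskeleton genes 16 of 25 and 0.063. The medians of the lists for neurotrophin and GDNF signalling (6 of 14 higher), sterol carriage (7 of 16), p11 and its partners (6 of 13) and nuclear-retained noncoding RNAs (4 of 9) were -0.041, -0.021, -0.091 and -0.0031. Large housekeeping lists stayed near 0: cytosolic ribosomal proteins 37 of 81 higher (median -0.020), the nuclear-encoded respiratory chain and ATP synthase 36 of 78 (-0.014), mitochondrial ribosomal proteins 44 of 76 (0.051), proteasome subunits 25 of 46 (0.014) and autophagy genes 17 of 36 (-0.0099).

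**Figure D4:**
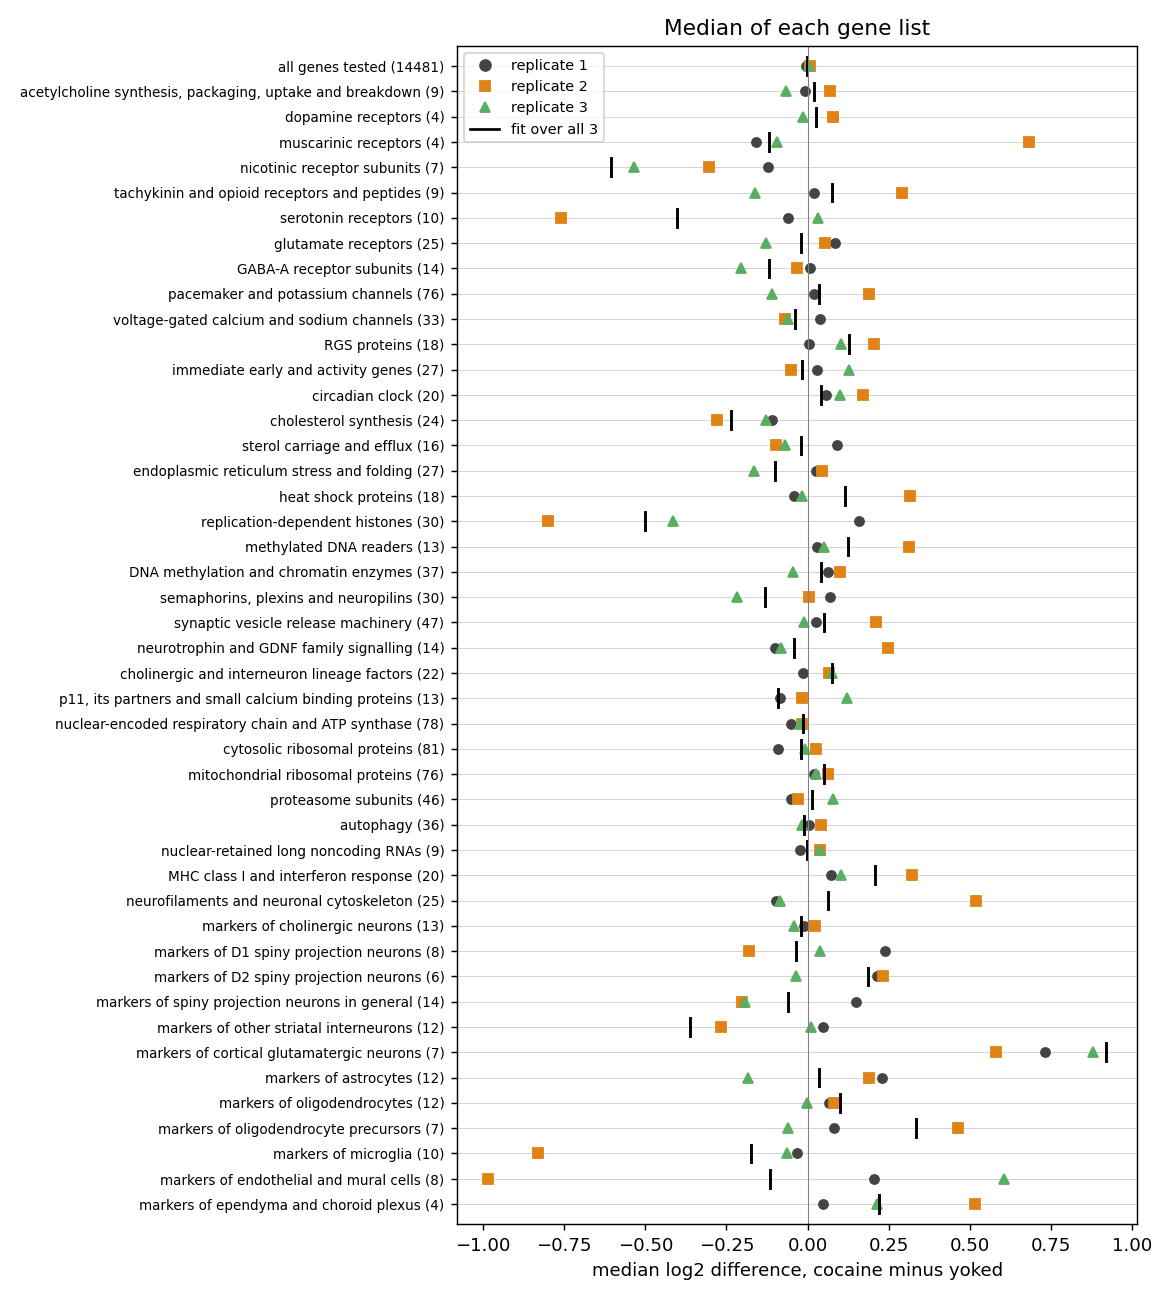
Median log2 difference of cocaine minus yoked (x axis) for each gene list, with its number of tested members in brackets. The black line is the fit over all 3 replicates and the symbols are the medians within replicates 1, 2 and 3. Cortical glutamatergic markers lie to the right in all 3 replicates (0.73, 0.58 and 0.88), while the histones run from 0.16 to -0.80.

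Markers of cell types outside the striatal cholinergic population were measured beside these results. Of 7 tested markers of cortical glutamatergic neurons, 6 were higher in cocaine libraries, with a median log2 difference of 0.92, which was 0.96 without replicate 2. Neurod6, a neuronal helix-loop-helix factor, was at 2.58, 2.82 and 1.57 CPM in cocaine and 0.444, 0.746 and 0.624 CPM in yoked libraries without overlap (log2 difference 1.93, SE 0.68, unadjusted p = 0.0259). Slc17a7, the vesicular glutamate transporter of cortical neurons and a gene named after its values were seen, was at 12.1, 16.9 and 8.35 CPM against 8.65, 13.2 and 3.41 CPM. Its groups overlapped (log2 difference 0.70, SE 0.29, unadjusted p = 0.047). The 1 lower member of the list had a log2 difference of -1.20. In all, 3 of the 7 had an unadjusted p under 0.05, as 0.801% of all genes tested did on the higher side. The summed list reached 38.1, 39.2 and 20.8 CPM in cocaine and 21.4, 30.5 and 9.46 CPM in yoked libraries, so the groups overlapped. The sum was 427 CPM in the input, and no marker of the list was at 0 in all 6 libraries. It was 19.5, 29.8 and 19.8 CPM in saline libraries. The part of this RNA in the differences of other genes was not tested.

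The summed levels of the other marker lists also overlapped between the groups. Astrocyte markers summed to 406 to 628 CPM in cocaine and 475 to 532 CPM in yoked libraries, and oligodendrocyte markers to 351 to 627 CPM and 362 to 564 CPM. Microglia markers summed to 17.4 to 32.6 CPM against 32.5 to 33.8 CPM, with cocaine replicate 2 the lowest. Of 10 tested microglia markers 4 were higher and 6 lower, with a median log2 difference of -0.17. In all, 2 lay below without overlap (3.48% of all genes). Aif1, a calcium-binding protein of microglia with the smallest p of the list, was 1 of these. It was at 2.90, 1.12 and 3.44 CPM against 5.64, 4.41 and 5.32 CPM. Endothelial and mural markers summed to 15.9 to 18.5 CPM in cocaine and 15.5 to 35.4 CPM in yoked libraries, oligodendrocyte precursor markers to 57.7 to 90.8 CPM and 74 to 86.9 CPM. Markers of D1 projection neurons summed to 342 to 375 CPM and 344 to 396 CPM. The D2 list summed to 1260 to 2610 CPM and 1080 to 1320 CPM, with its top value in cocaine replicate 2. Drd2 belongs to this list and made up most of the sum in each of these libraries, so the sum mainly repeats Drd2. In saline libraries Drd2 was 5.27-fold above input, while the list had a median log2 ratio to input of -2.96. The sum is therefore not a measure of D2 projection neuron RNA. The sums of marker lists are plain CPM, without the scaling used for the levels of single genes. Markers of other striatal interneurons summed to 163 to 263 CPM and 158 to 193 CPM. Of 12 tested members of that list 5 were higher and 7 lower, with a median log2 difference of -0.36. Its lowest member was Calb2, the calretinin of a small interneuron class. Calb2 had 0, 0 and 2 reads in the cocaine libraries and 77, 19 and 14 in the yoked libraries. These are 0, 0 and 0.0668 CPM against 1.42, 0.59 and 0.514 CPM, near the detection limit. Calb2 did not pass edgeR's test (adjusted p = 0.924).

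**Figure D5:**
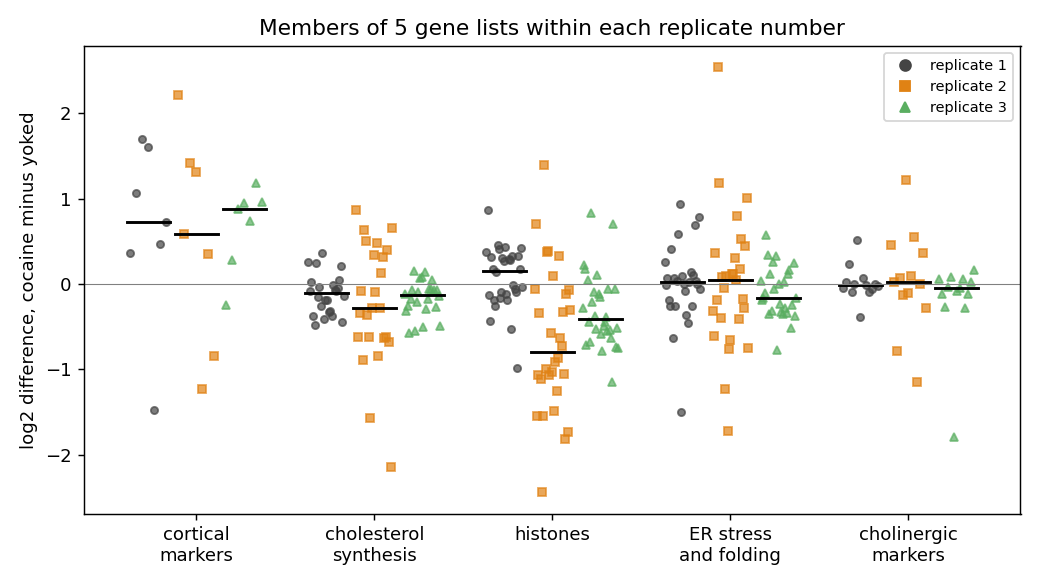
Log2 difference of cocaine minus yoked (y axis) of every tested member of the cortical marker, cholesterol, histone, endoplasmic reticulum and cholinergic marker lists (x axis) within each replicate number, with the median as a line. Cholinergic markers centre on 0 in each replicate, while 6 of the 7 cortical markers are higher in the fit (median 0.92).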

How the data were processed

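Polysomes carrying the EGFP tag were immunopurified from homogenised striatum, per the labels' protocols. Per the submitters' processing notes, STAR 2.0.0e and HTSeq were used with the build mm10; the annotation and strand setting are not given in the sources used here. The authors deposited raw read counts per gene symbol, without normalisation, 1 table per library. Rows that name no gene (reads not aligned to 1 place, outside genes or ambiguous) were left out of library sizes. The row of the first kind held 36.3% to 57.1% of all counts. Whether that row counts a read with several alignments repeatedly is not given.

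Counts of the 6 libraries were scaled by the trimmed mean of M-values and tested in R 4.3.3 with edgeR 4.0.16 (quasi-likelihood, robust, filter at a minimum count of 10 and a minimum total of 15), group plus replicate number, with 2 residual degrees of freedom and Benjamini-Hochberg adjustment over all 14481 genes. The filter kept these from 21901 symbols with a count. Log2 differences are cocaine minus yoked; differences within a replicate use CPM plus 0.5. The block was kept because the comparison was set up with it. Deviations of same-numbered libraries from their group means correlated at 0.24, 0.0717 and 0.228. Same-numbered libraries were set against each other in the block and, as a description, in the differences within replicates. The labels do not say that they are pairs, and the match was weak in replicate 2.

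Alternatives used DESeq2 1.42.0, limma 3.58.1 (voom with library weights), other scaling and filters, and left-out libraries. The procedure was tested on 1 simulated data set. There the fit without replicate 2 made more false calls than its threshold allows, and the fit of 6 libraries did not. The simulation gave each gene 1 dispersion in all libraries and left out the wider spread of replicate 2. It does not show that either fit keeps its threshold on these data. Ratios to input are plain CPM of the saline libraries over 1 input library, for genes with at least 20 counts on either side. Gene symbols matched the reference gene table (GRCm38.p6, the assembly of mm10) for 115 of 122 genes named, which supplied coordinates.

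Named genes are Chat, Slc18a3, Slc5a7 and Rpl10a, the 12 with the smallest p in each direction at a mean of at least 5 CPM, the 2 with the smallest p of each list, genes named in earlier results, and those called without replicate 2; 3 genes that this rule or a list names are not reported here, and others are marked where they appear or stand in a list as a comparison. The comparison, the lists and the named genes were chosen with earlier results of these data known. Members of lists share a source and are not replicates. Mitochondrially encoded genes were not analysed here.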

Additional observations from a re-analysis of the deposited data

How the results depend on the processing

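Counts of called genes stayed at 0 in every alternative with 6 or more libraries, and left-out libraries gave 0 to 26. The robust fit without replicate 2 called 13, and a non-robust fit of the same 4 libraries, added after seeing the data, called 26, which include all 13, with 719 genes at an unadjusted p under 0.05. The other counts at that p were 147 to 723 with libraries left out, 467 with no filter on low counts, 151 at a mean of at least 5 CPM, 572 with DESeq2 (smallest adjusted p 0.448) and 516 with limma voom (0.223). With all 9 immunopurified libraries they were 448 with the block and 391 without it. Without the replicate block, edgeR called 0 genes, had 319 at an unadjusted p under 0.05 and a smallest adjusted p of 0.9996. In deviations from the group means, every cocaine library correlated best with the yoked library of its own number (0.24, 0.0717 and 0.228), a hint from the data and not from the design. In levels, cocaine replicate 2 had its lowest Spearman correlation with the yoked library of its own number (0.951, against 0.964 and 0.965). Of 122 genes named, 102 kept their direction in every alternative run, among them Zbtb38 (0.61 to 1.12), Slc11a2 (-1.14 to -0.64) and Ficd (-1.22 to -0.81). Most of the 122 were picked by p from these libraries, which the alternatives reuse, so a kept direction is partly built in. The share over all genes tested was not computed. Rn45s reversed to -0.119 without the block, -0.118 in the fit of 9 libraries without it and -0.154 with limma voom, which also reversed Chrm4 (0.0478) and Cdr1 (0.152). AK155692 reversed to 0.0996 in the fit of 9 libraries with the block. With libraries left out, 20 genes reversed at least once: abParts (-0.135 to 1.1), AK144265 (-1.28 to 0.292), AK155692 (-1.47 to 0.877), Cartpt (-1.08 to 0.567), Cdr1 (-1.15 to 0.352), Chrm1 (-0.129 to 1), Chrm4 (-0.676 to 0.187), Enpp2 (-0.109 to 0.856), Gabrg3 (-0.00384 to 0.935), Hist2h4 (-1.43 to 0.0378), Hspa5 (-0.267 to 0.0141), Lars2 (-1.11 to 0.221), Mir6236 (-1.36 to 0.589), Ntrk3 (-0.0622 to 0.558), Rgs5 (-0.541 to 0.0901), Rn45s (-0.641 to 0.585), Rpl10a (-0.221 to 0.483), S100a10 (-0.0361 to 0.545), Slc5a7 (-0.208 to 0.071) and Tacr1 (-0.0637 to 0.273). Over 46 lists, medians moved beyond the spread of the 3 replicates in 144 combinations of list and alternative and stayed within it in 821. The cortical marker median ran from 0.43 to 1.58, that of cholesterol synthesis from -0.35 to -0.038 and that of the histones from -0.86 to -0.047, while those of nicotinic and serotonin receptors took both signs. Fits with libraries left out have fewer samples by construction, and for the other shifts the cause was not tested. Depth limits the genes of a few CPM, and thinning all libraries to the lowest total left 0 calls and 246 genes at an unadjusted p under 0.05.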
